A study of Mus musculus with 2 samples.

Results

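The 10 genes described here mark the stem and folliculostellate cells of the pituitary and were read in bulk RNA-seq of dissociated mouse pituitary cells kept in RNA-Best or in RNAlater. They are Sox2, Sox9, S100b, Nes, Prom1, Cxadr, Aldh1a1, Aldh1a2, Prrx1 and Cdh1. The genes were taken by symbol, and all 10 were found among the 47069 genes of the count table. RNA-Best is the stabilization buffer of the study, designed to keep RNA in intact single cells, and RNAlater was the reference reagent.

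Both samples came from C57BL/6 female mice that were randomly cycling, with no genetic change or drug. The protocol gives their age as 10 to 12 weeks, while another label of both samples reads 3 weeks beside the cycling state. Each sample pooled 500000 to 700000 cells of 5 pituitaries, dispersed with enzymes and stored at once in its reagent. Each reagent had 1 library, of 53915047 counts in RNA-Best and 44917492 in RNAlater, so no difference has a replicate check and no test was run. The reagent therefore cannot be told apart from the pool of mice, the shipment or the library preparation. In bulk RNA, fewer cells of a type and less RNA per cell cannot be told apart either.

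The adult anterior pituitary holds a minor population of epithelial cells that make no hormone. Part of it is marked by SOX2 and can give rise to endocrine cells. Folliculostellate cells are star-shaped cells around small follicles, are marked by S100 beta protein, and share many markers with the SOX2 cells. The markers differ in how specific they are. Nestin is also made by cells of the vessel wall, S100 beta by glia, PRRX1 by mesenchymal cells, and E-cadherin, the product of Cdh1, by epithelial and endocrine cells of the gland.

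All 10 genes were lower in RNA-Best than in RNAlater. Levels are given as CPM, the counts of a gene scaled to a library total of 1000000. Each ratio is the log2 of RNA-Best over RNAlater with 0.5 CPM added to both, so negative values mean a lower level in RNA-Best. The ratios ran from -0.19 for Aldh1a1 to -1.12 for Cdh1, with a median of -0.53. Across the 16504 genes whose mean level reached 1 CPM, all 10 among them, the median was -0.18 and 67.0% had a ratio below 0. The 10 genes also each lay below the median of all genes.

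The 95% counting interval of the ratio, computed without the added 0.5 CPM, lay wholly below 0 for 10 of 10 genes, against 51.2% of all genes. Such intervals hold only the error of counting, and PCR duplicates of a molecule were not told apart. At least 2-fold lower was 1 of the 10 genes, Cdh1, where 4.99% of all genes passed that limit. None was at least 2-fold higher, where 0.273% of all genes were. Scaling moved these values. By TMM, which scales libraries on the bulk of their genes, the 10 genes were again lower but Cdh1 stood at -0.95, so none passed 2-fold, the intervals of 8 genes lay below 0 (all but Aldh1a1 and Prom1), and 51.4% of all genes had a ratio below 0.

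Together the 10 genes held 403 CPM in RNA-Best (exact Poisson interval 397 to 408) and 684 CPM in RNAlater (677 to 692). The log2 ratio of the sums was -0.77 (-0.79 to -0.74). Cdh1 alone gave 25.2% of that sum in RNA-Best and 32.4% in RNAlater, and without Cdh1 the ratio of the sums was -0.62.

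**Figure D1:**
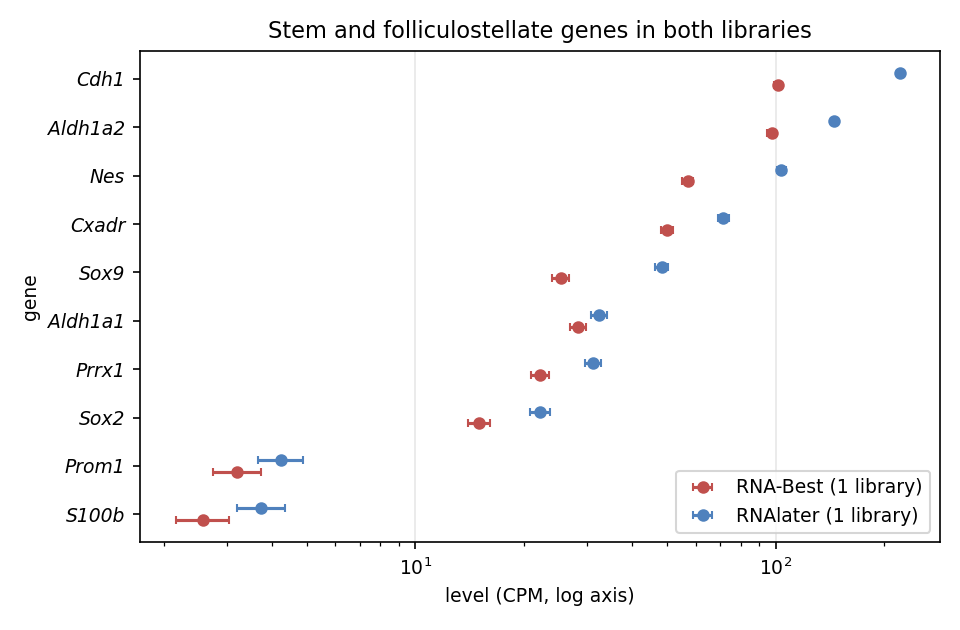
Level of each gene in CPM on a log axis in the RNA-Best library (red) and the RNAlater library (blue), with the exact 95% Poisson interval of the count. The RNA-Best point lies to the left of the RNAlater point for all 10 genes, from S100b (2.58 and 3.74 CPM) to Cdh1 at 102 and 222 CPM.

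The transcription factors Sox2 and Sox9 carry an HMG box, the DNA-binding domain by which SOX proteins are known. Its coding bases are shown because the box is the best conserved part of the family and so the place where short reads of SOX genes could be mixed. The 60 bases below lie within the box in exon 1 of each gene, 5′ to 3′ on the coding strand of GENCODE M21 transcripts (GRCm38), and capitals mark bases that differ from Sox2. The Sox2 bases are at chr3:34650548-34650607 on the plus strand and those of Sox9 at chr11:112782903-112782962 on the plus strand. Those of Sox3, the closest relative of Sox2 shown, are at chrX:60892936-60892995 on the minus strand, and those of Sox8, a relative of Sox9, at chr17:25570163-25570222 on the minus strand.
Sox2: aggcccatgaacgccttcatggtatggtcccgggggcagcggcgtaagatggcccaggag
Sox9: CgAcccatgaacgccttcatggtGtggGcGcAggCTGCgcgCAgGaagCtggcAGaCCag
Sox3: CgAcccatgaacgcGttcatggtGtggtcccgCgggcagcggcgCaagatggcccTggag
Sox8: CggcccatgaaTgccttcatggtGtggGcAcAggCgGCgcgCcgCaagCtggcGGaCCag

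Of these 60 bases, 18 differed between Sox2 and Sox9, 7 between Sox2 and Sox3 and 16 between Sox2 and Sox8. Along the aligned coding sequences, the longest run of identical bases in Sox2 and Sox9 was 20. The libraries were read as 51-base single reads. None of the 2007 windows of 51 bases in the Sox2 transcript occurred in an annotated transcript of any other gene. Nor did any of the 4085 in the Sox9 transcript. The counts of Sox9 still held fractions, at 1366.5 in RNA-Best and 2169.33 in RNAlater. Matches outside annotated transcripts were not searched.

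Sox2 (ENSMUSG00000074637.7, chromosome 3, 34650405-34652461, 1 exon) maintains progenitor identity in many tissues. It had 811 counts, or 15.0 CPM (14.0 to 16.1), in RNA-Best and 998 counts, or 22.2 CPM (20.9 to 23.6), in RNAlater. The log2 ratio was -0.55 (-0.70 to -0.43), and the intervals of the levels did not overlap. Sox2 lies in an intron of Sox2ot, a long noncoding RNA gene on the same strand that shares no exon base with it. Sox2ot had 4.77 and 4.94 CPM and a ratio of -0.05 (-0.32 to 0.21), an interval that held 0, and 0.11 by TMM.

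Sox9 (ENSMUSG00000000567.5, chromosome 11, 112782224-112787760, 3 exons) marks a later progenitor stage in the gland and is known from cartilage and testis formation. It was at 25.3 CPM (24.0 to 26.7) in RNA-Best and at 48.3 CPM (46.3 to 50.4) in RNAlater. Its ratio of -0.92 (-1.03 to -0.83) was the lowest of the 10 after Cdh1. Sox9 thus fell short of 2-fold, and its interval reached past that limit. The count ratio of Sox9 to Sox2 was 1.68 in RNA-Best and 2.17 in RNAlater, a log2 change of -0.37 (-0.53 to -0.20). No scaling of the libraries can alter such a pair ratio, but neither this one nor those below allow for transcript length.

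Prrx1 (ENSMUSG00000026586.16, chromosome 1, 163245119-163313710) encodes a homeodomain factor of mesenchymal cells that has also been described in pituitary progenitors. It had 22.1 CPM (20.9 to 23.4) in RNA-Best and 31.1 CPM (29.5 to 32.8) in RNAlater, with a ratio of -0.48 (-0.60 to -0.38). Relative to Sox2 its counts stood at 1.47 in RNA-Best and 1.40 in RNAlater, a log2 change of 0.07 (-0.10 to 0.25) whose interval held 0.

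S100b, Nes and Prom1 encode a calcium-binding protein, an intermediate filament and a membrane protein of cell protrusions, which are used to recognise folliculostellate, neural stem and epithelial progenitor cells. Nes (ENSMUSG00000004891.16, chromosome 3, 87971078-87980451) was the most abundant, with 57.0 CPM (55.0 to 59.1) in RNA-Best and 104 CPM (101 to 107) in RNAlater. Its ratio was -0.86 (-0.93 to -0.80). Relative to Sox2, Nes counts were 3.79 in RNA-Best and 4.67 in RNAlater, a log2 change of -0.30 (-0.45 to -0.15).

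S100b (ENSMUSG00000033208.7, chromosome 10, 76253853-76261159), the classical folliculostellate marker, was the least abundant of the 10 by CPM. It had 139 counts, or 2.58 CPM (2.17 to 3.04), in RNA-Best and 168 counts, or 3.74 CPM (3.20 to 4.35), in RNAlater. Of the 16504 genes, 14.7% were below it in RNA-Best and 17.9% in RNAlater. The ratio was -0.46 (-0.87 to -0.20), the widest interval among the 10. Relative to Sox2 its counts were 0.171 and 0.168, a log2 change of 0.03 (-0.32 to 0.38).

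The gene body of S100b overlaps that of Dip2a on the opposite strand, without shared exon bases. Dip2a had 10.7 and 24.0 CPM and a ratio of -1.13 (-1.31 to -1.02).

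Prom1 (ENSMUSG00000029086.15, chromosome 5, 43993620-44102032) encodes prominin-1, also known as CD133, and had the most annotated transcripts of the 10 genes, with 19. It had 172.86 counts, or 3.21 CPM (2.75 to 3.72), in RNA-Best and 190 counts, or 4.23 CPM (3.65 to 4.88), in RNAlater, so the intervals of the levels overlapped slightly. The ratio was -0.35 (-0.70 to -0.09).

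Aldh1a1 and Aldh1a2 encode aldehyde dehydrogenases that make retinoic acid, a signal that acts through nuclear receptors. Their sequences are shown beside that of Aldh1a7 because Aldh1a1 and Aldh1a7 are near-copies next to each other on chromosome 19. Their coding sequences of 1503 bases each were 91.6% identical, with a longest identical run of 100 bases. Aldh1a1 and Aldh1a2 were 68.4% identical, with a longest run of 20. The 60 bases below are the middle of the run of 100, read from GENCODE M21 transcripts on GRCm38, 5′ to 3′ on the coding strand, and capitals mark bases that differ from Aldh1a1. They lie at chr19:20629083-20629142 on the plus strand in exon 11 of the longest Aldh1a1 transcript and at chr19:20709412-20709471 on the minus strand in exon 8 of Aldh1a7. Those of Aldh1a2 lie at chr9:71281633-71281692 on the plus strand in exon 8.
Aldh1a1: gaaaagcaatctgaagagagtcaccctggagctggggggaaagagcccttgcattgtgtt
Aldh1a7: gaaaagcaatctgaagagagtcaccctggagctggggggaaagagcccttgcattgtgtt
Aldh1a2: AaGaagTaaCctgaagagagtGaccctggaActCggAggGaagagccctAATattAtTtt

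The lines of Aldh1a1 and Aldh1a7 differed at 0 of 60 bases, so a 51-base read within them cannot be assigned by its sequence, while that of Aldh1a2 differed at 14. In the whole Aldh1a1 transcript, 146 of 2308 windows of 51 bases (6.33%) also occurred in Aldh1a7. For Aldh1a2, 0 of the 2214 windows occurred in an annotated transcript of another gene. How the counting treated such reads is not given in the sources used here, and Aldh1a7 itself was listed at 0.705 and 0.657 CPM in RNA-Best and RNAlater.

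Aldh1a2 (ENSMUSG00000013584.5, chromosome 9, 71215789-71296243) had 97.4 CPM (94.8 to 100.1) in RNA-Best and 145 CPM (142 to 149) in RNAlater. Its ratio was -0.58 (-0.63 to -0.53). Aldh1a1 (ENSMUSG00000053279.6, chromosome 19, 20492715-20643465) had 28.2 CPM (26.8 to 29.7) and 32.3 CPM (30.6 to 34.0). Its ratio of -0.19 (-0.30 to -0.09) was the highest of the 10 and lay beside the median of all genes, -0.18. By TMM it stood at -0.02 (-0.12 to 0.09), an interval that held 0. The ratios of the 2 enzymes thus differed, and their counts lay closer together in RNA-Best. Counts of Aldh1a2 relative to Aldh1a1 were 3.45 in RNA-Best and 4.51 in RNAlater, a log2 change of -0.39 (-0.50 to -0.27).

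Cxadr and Cdh1 encode adhesion proteins of epithelial junctions. Cxadr (ENSMUSG00000022865.13, chromosome 16, 78301489-78359774), the receptor of coxsackievirus and adenovirus, had 50.1 CPM (48.2 to 52.0) in RNA-Best and 71.6 CPM (69.1 to 74.1) in RNAlater. The ratio was -0.51 (-0.59 to -0.44). Cxadr shares 695 exon bases with Btg3 on the opposite strand, and 272 of its 5692 windows (4.78%) occur in Btg3 transcripts. Whether the counting used strand is not given in the sources used here, so reads of that stretch cannot be assigned. Btg3 had 49.7 and 55.3 CPM and a ratio of -0.15 (-0.23 to -0.08), which turned to 0.02 by TMM. Prom1, relative to Cxadr, had a log2 change of 0.12 (-0.19 to 0.42).

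Cdh1 (ENSMUSG00000000303.12, chromosome 8, 106603351-106670246), the gene of E-cadherin, was the most abundant of the 10 by CPM and had the lowest ratio. It had 5473 counts, or 102 CPM (98.8 to 104), in RNA-Best and 9957 counts, or 222 CPM (217 to 226), in RNAlater. The ratio was -1.12 (-1.17 to -1.08), and 3.21% of all genes had a lower one. Its counts relative to Cxadr were 2.03 in RNA-Best and 3.10 in RNAlater, a log2 change of -0.61 (-0.70 to -0.52). Epcam, another adhesion gene of epithelial cells, had a ratio of -0.17 (-0.20 to -0.15). Relative to Epcam, Cdh1 counts were 0.189 and 0.367, a log2 change of -0.96 (-1.01 to -0.90). None of the 4380 windows of its longest transcript occurred in an annotated transcript of another gene.

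**Figure D2:**
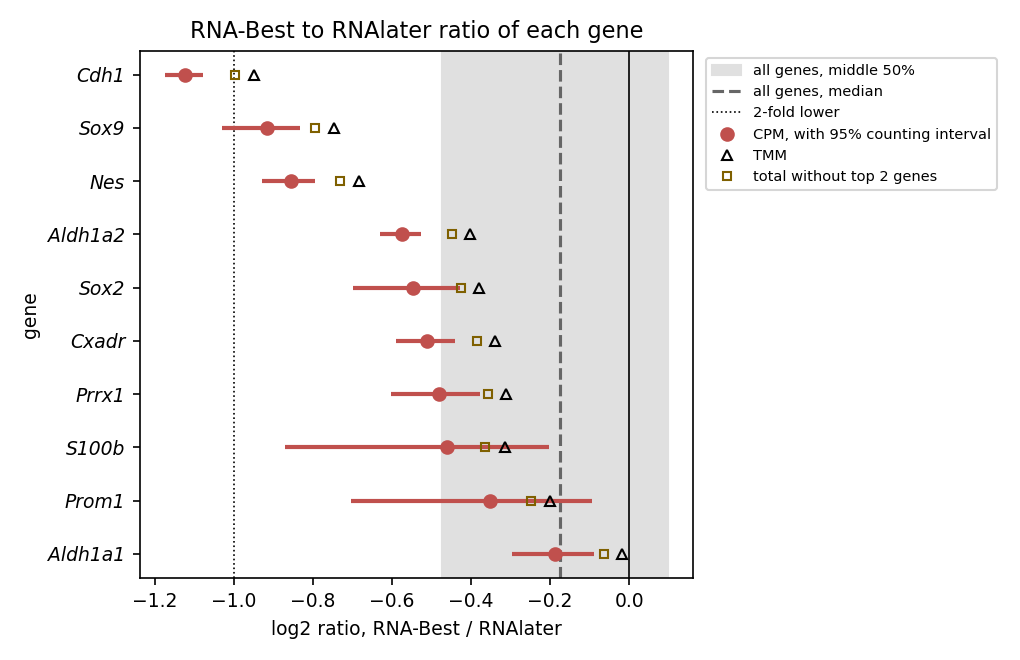
Log2 ratio of RNA-Best to RNAlater for each gene by CPM (red points, with the 95% counting interval computed without the added 0.5 CPM), by TMM (triangles) and by the total without the 2 most abundant genes (squares). The 10 red points lie between -1.12 and -0.19, left of the dashed median of all genes (-0.18), and the other scalings shift all 10 to the right without taking any past 0.

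Levels of different genes were compared within each library as CPM per kb of the longest annotated transcript. Aldh1a2 was highest in both libraries, at 43.0 CPM per kb (41.9 to 44.2) in RNA-Best and 64.3 (62.7 to 65.8) in RNAlater. Cdh1 followed, at 22.9 CPM per kb in RNA-Best and 50.04 in RNAlater. In RNA-Best the order then ran Aldh1a1 (12.0 CPM per kb), Nes (9.31), Cxadr (8.72), Sox2 (7.31), Sox9 (6.13), Prrx1 (3.39), S100b (1.74) and Prom1 (0.784). Neighbours whose counting intervals overlapped were Nes and Cxadr.

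In RNAlater the order below Cdh1 ran Nes (16.9 CPM per kb), Aldh1a1 (13.7), Cxadr (12.5), Sox9 (11.7), Sox2 (10.8), Prrx1 (4.77), S100b (2.52) and Prom1 (1.03). Here the intervals overlapped between Cxadr and Sox9 and between Sox9 and Sox2. Of the 10 genes, 6 held the same rank in both libraries, while Nes changed places with Aldh1a1 and Sox9 with Sox2. These ranks depended on the length used. Per kb of merged exons, which include the exons of all transcripts of a gene, 12 of the 20 ranks in both libraries stayed. Aldh1a1 was then at rank 7 in both libraries, at 5.72 CPM per kb in RNA-Best and 6.54 in RNAlater, and Nes was at rank 3 in both, so this pair no longer changed places. Sox2, Cxadr and Sox9 followed Nes in that order in RNA-Best, and Sox9, Sox2 and Cxadr in RNAlater.

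Transcript length was set beside the ratios because ratios in these libraries fell with length across all genes, from a median of 0.29 for transcripts of up to 1 kb to -0.90 for those over 10 kb. The 10 transcripts ranged from 1484 bases for S100b to 6527 for Prrx1, with a median of 4112. Compared with all genes of its length class, 8 of the 10 lay below the class median and 5 below the lower quartile. With merged exon lengths these numbers were 7 and 6. Nes was then also below the lower quartile of its class (-0.72), and Aldh1a1 was above its class median.

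The 5 genes below the lower quartile of their class were S100b, Sox2, Aldh1a2, Sox9 and Cdh1. S100b stood at -0.46 where the 2715 genes of 1 to 2 kb had a median of 0.07 and a lower quartile of -0.15. Sox2 at -0.55 and Aldh1a2 at -0.58 belonged to the class of 2 to 3 kb, with a median of -0.09 and a lower quartile of -0.29. In the class of 4 to 6 kb, with a median of -0.40 and a lower quartile of -0.65, 8.49% of genes lay below Sox9 and 3.12% below Cdh1.

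The other 5 lay within the middle of their class. Aldh1a1 was 0.10 below and Cxadr 0.11 below the class median on the log2 scale, and Nes, at -0.86, compared with a median of -0.65 for 6 to 10 kb. Prom1 at -0.35 and Prrx1 at -0.48 were above their class medians of -0.40 and -0.65. Relative to a smooth trend on length, the residuals of the 10 genes ran from -0.76 for Cdh1 to 0.12 for Prrx1, with a median of -0.40. Sox2 was at -0.51, Sox9 at -0.61 and Nes at -0.30. Nes and Prrx1 thus lay above Sox2 there. On the trend by merged exon length, Nes was at -0.48 and Sox2 at -0.56, so Nes lay closer to Sox2. Without regard to length, the pair ratio of Nes to Sox2 was lower in RNA-Best, and the change of Prrx1 to Sox2 had an interval that held 0.

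**Figure D3:**
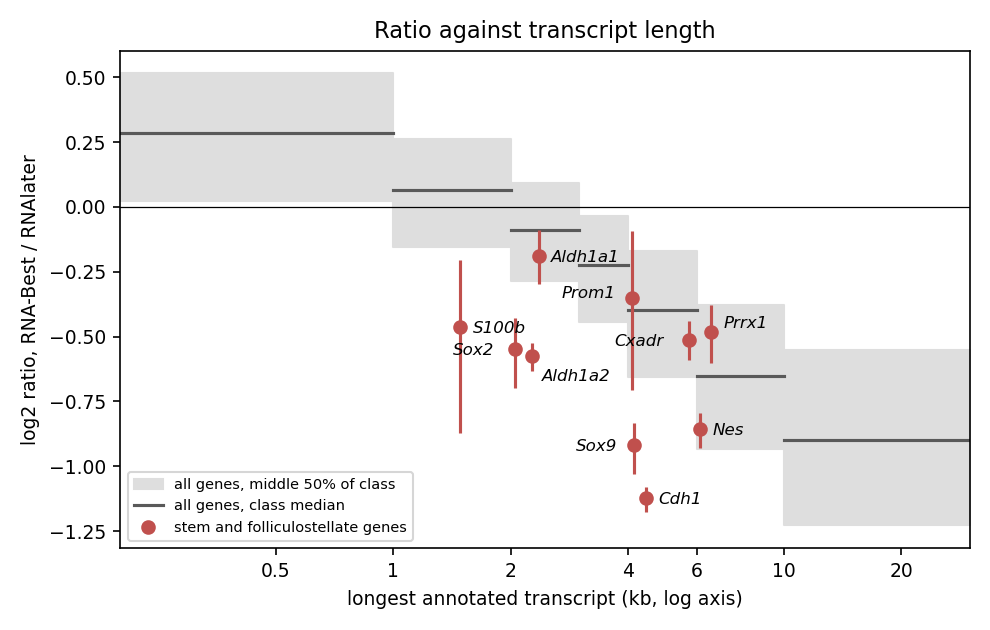
Log2 ratio of RNA-Best to RNAlater against the longest annotated transcript in kb (log axis) for the 10 genes, with 95% counting intervals, over the median (line) and middle 50% (grey) of all genes in 7 length classes. S100b, Sox2, Aldh1a2, Sox9 and Cdh1 lie below the grey boxes of their classes, and Prom1 and Prrx1 lie above the class medians of -0.40 and -0.65.

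Other genes of the same cells were read from lists that do not repeat the 10. Of 30 further stem and folliculostellate genes, 27 reached a mean of 1 CPM. Of these, 26 were lower in RNA-Best (24 by TMM), 2 were at least 2-fold lower (1 by TMM) and none was 2-fold higher, with a median of -0.59. Among all 16504 genes, 67.0% were lower (51.4% by TMM) and 4.99% at least 2-fold lower (2.65% by TMM). These shares stand beside the counts of every list below. The most abundant was Clu, which encodes the chaperone clusterin, at 621 and 766 CPM and a ratio of -0.30 (-0.32 to -0.28). The lowest were Notch2, a receptor of the Notch pathway, at 21.1 and 53.5 CPM and -1.32 (-1.44 to -1.24), and its ligand gene Jag1, at 6.34 and 14.0 CPM and -1.08 (-1.33 to -0.95). Notch2 falls in the class over 10 kb, where 42.4% of all genes were at least 2-fold lower. Jag1 falls in that of 4 to 6 kb, where 5.66% were. Mia, which encodes a small secreted protein, was the only one of the 27 higher in RNA-Best by CPM. It had 33.6 and 27.4 CPM and a ratio of 0.29 (0.19 to 0.40). Its class of up to 1 kb had a median of 0.29. By TMM, Pitx1 (0.08) and Cdkn1c (0.11) were above 0 too. Relative to the length trend, the median of the 27 genes was -0.36, beside -0.40 for the 10 genes.

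Around the retinoic acid enzymes, 12 of 17 pathway genes reached 1 CPM. Of these, 10 were lower in RNA-Best (9 by TMM) and 1 was at least 2-fold lower, with a median of -0.45. Relative to the length trend their median was -0.26. The 2-fold lower gene was Cyp26b1, which encodes an enzyme that breaks retinoic acid down, at 6.77 and 21.9 CPM and a ratio of -1.63 (-1.87 to -1.52). The most abundant were the receptor genes Rxrb, at 42.0 and 40.2 CPM and 0.06 (-0.03 to 0.15), and Rarg, at 29.8 and 38.8 CPM and -0.37 (-0.48 to -0.28). Aldh1a3, the third enzyme of the family, had 0.216 and 0.446 CPM, under the limit of 1 CPM.

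All 17 epithelial junction genes reached 1 CPM and were lower in RNA-Best by CPM, 15 of them also by TMM, and 4 were at least 2-fold lower (2 by TMM). Their median was -0.49, and it was -0.37 relative to the length trend. Epcam was the most abundant, at 537 and 604 CPM, and changed sign by TMM, to 0.00. Krt18, a keratin of simple epithelia, followed at 395 and 526 CPM and -0.41 (-0.44 to -0.39). Among the 2-fold lower genes were those of the junction plaque proteins Dsp (-1.77, interval -1.99 to -1.67), Tjp1 (-1.44, -1.55 to -1.37) and Jup (-1.05, -1.12 to -0.99). Dsp and Tjp1 fall in the class of 6 to 10 kb, where 20.9% of all genes were at least 2-fold lower. Jup falls in that of 3 to 4 kb, where 2.01% were. Cldn3, a claudin, was highest, at -0.05 (-0.16 to 0.06), and was also above 0 by TMM (0.12).

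All 11 genes of mesenchymal transition were lower in RNA-Best by CPM, 10 of them also by TMM, with a median of -0.78. Relative to the length trend their median was -0.52. The 3 at least 2-fold lower (2 by TMM) were Fn1, the gene of fibronectin, at 1.87 and 7.44 CPM and -1.74 (-2.32 to -1.66), the transcription factor gene Zeb1, at 18.8 and 43.1 CPM and -1.18 (-1.31 to -1.09), and the ligand gene Tgfb1, at 8.07 and 17.3 CPM and -1.05 (-1.27 to -0.93). In their length classes, the share of all genes at least 2-fold lower was 20.9% for Fn1, 5.66% for Zeb1 and 0.836% for Tgfb1. The most abundant were Tgfbr2 at -0.85 (-0.93 to -0.78) and Vim, the gene of vimentin, at -0.83 (-0.92 to -0.75). Twist1 had the highest ratio, -0.05 (-0.53 to 0.39), and stood at 0.08 by TMM.

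The relatives of S100b were split. Of 11 other S100 genes, 8 reached 1 CPM, and 5 of these were higher and 3 lower in RNA-Best, with a median of 0.10. The most abundant, S100a10, had 248 and 234 CPM and a ratio of 0.08 (0.05 to 0.12), and S100a11 had 53.4 and 64.6 CPM and -0.27 (-0.35 to -0.20). The ends were S100a9 at -0.36 (-0.78 to -0.07) and S100a13 at 0.55 (0.40 to 0.74). The median transcript of these 8 was 681 bases, less than that of S100b, and relative to the length trend their median was -0.12. Of the 8, 6 lay below that trend. S100a9 (-0.65), S100a11 (-0.57) and S100a6 (-0.52) stood near S100b (-0.52) or below it. Of the relatives of Sox2 and Sox9, Sox8 had 1.09 and 3.12 CPM and a ratio of -1.18 (-1.97 to -1.06), Sox1 had 0.835 and 1.45 CPM and -0.54 (-1.38 to -0.22), and Sox3 and Sox10 did not reach 1 CPM.

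**Figure D4:**
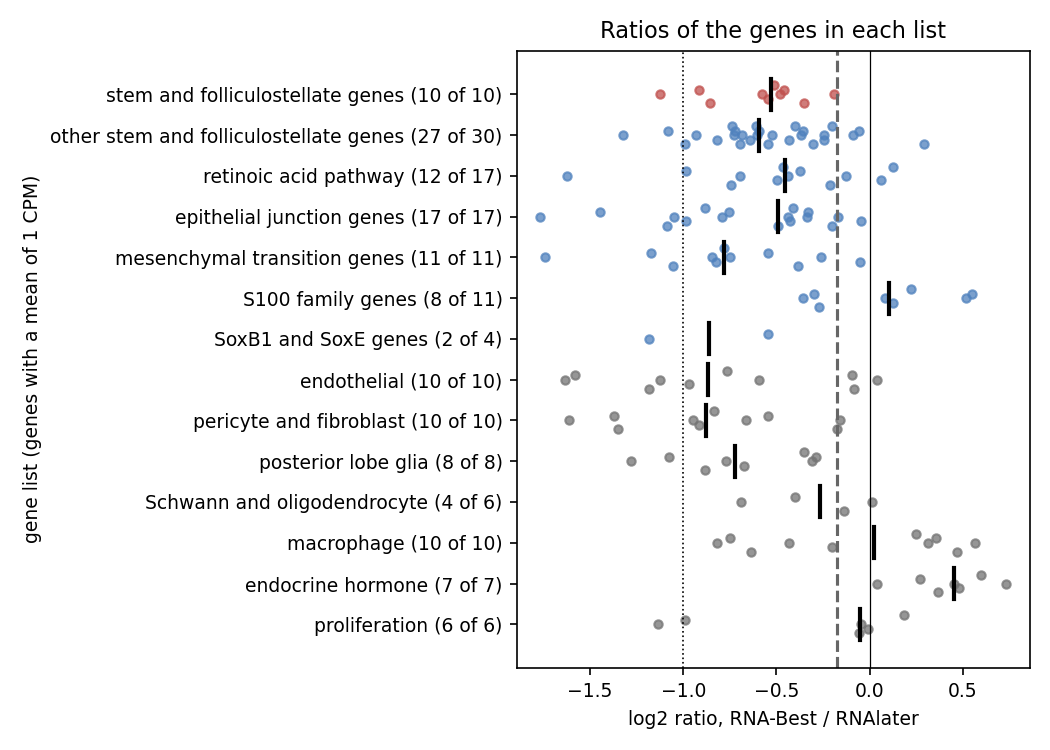
Log2 ratio of RNA-Best to RNAlater for each gene whose mean reached 1 CPM in the 10 stem and folliculostellate genes (red), the lists of related genes (blue) and the markers of other cells (grey), with list medians as black bars, the median of all genes dashed and the 2-fold limit dotted. The red points have a median of -0.53, between the medians of endothelial markers (-0.87) and macrophage markers (0.02).

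Markers of other cells were read because several of the 10 genes are not made by stem cells alone. Their counts stand beside the 67.0% of all genes that were lower by CPM and the 51.4% by TMM. Endothelial markers were lower for 9 of 10 genes (7 by TMM; median -0.87), from Kdr at -1.63 (-1.72 to -1.57) to Egfl7 at 0.04 (-0.05 to 0.13). Their summed level was 430 and 813 CPM, and the most abundant, Plvap, had 144 and 246 CPM. Pericyte and fibroblast markers were lower for 10 of 10 (median -0.88; 9 of 10 by TMM), from Pdgfra at -1.61 (-1.91 to -1.51) to Ogn at -0.16 (-0.32 to -0.02), and summed to 590 and 801 CPM. Their most abundant gene, Col1a2, had 376 and 425 CPM. Relative to the length trend, the medians were -0.66 for endothelial and -0.49 for pericyte and fibroblast markers, beside -0.40 for the 10 genes.

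Glial markers of the posterior lobe were lower for 8 of 8 (median -0.72), from Nkx2-1 at -1.28 (-1.85 to -1.15) to Adm at -0.29 (-0.46 to -0.14), and summed to 137 and 243 CPM. Scn7a was the most abundant, at 50.6 and 86.6 CPM. Schwann and oligodendrocyte markers, of which 4 of 6 reached 1 CPM, were lower for 3 (median -0.27) and summed to 106 and 133 CPM. Mbp led them at 63.3 and 83.8 CPM and a ratio of -0.40 (-0.47 to -0.34). Relative to the length trend, the medians were -0.27 for posterior lobe glia and -0.02 for Schwann and oligodendrocyte markers. No marker of these 4 lists was at 0 in either library. The part of vessel, connective tissue and glial cells in the ratios of Nes, Prrx1 and S100b was not tested.

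Macrophage markers were lower for 5 of 10 and higher for 5 (median 0.02), from Cx3cr1 at -0.82 (-1.13 to -0.65) to C1qa, the most abundant, at 0.56 (0.48 to 0.65), and summed to 225 and 212 CPM. Relative to the length trend their median was 0.07. The 7 hormone genes were all higher in RNA-Best (median 0.45), from Gh at 0.04 (0.04 to 0.04) to Tshb at 0.73 (0.65 to 0.83), with Prl the most abundant. Their median transcript was 895 bases, and all genes of up to 1 kb had a median ratio of 0.29. Relative to the length trend the median of the 7 was 0.32, and 1 of them, Gh, lay below 0 (-0.16). Prl and Gh together took 29.7% of the counts in RNA-Best and 23.2% in RNAlater, and leaving both out of the total moved the median of the 10 genes from -0.53 to -0.41. Of 6 proliferation genes, 5 were lower by CPM and 2 by TMM (median -0.05), from Mki67 at -1.14 (-1.40 to -1.003) to Birc5 at 0.19 (-0.16 to 0.61), with Pcna the most abundant. Relative to the length trend the median of these 6 was -0.01.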

How the data were processed

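Poly(A) RNA of 2 samples was sequenced as 51-base single reads. Per the labels, the authors aligned reads with STAR 2.5.1b to mm10 (GRCm38) and counted them with featureCounts 1.5.0-p1. The deposited values are estimated counts per Ensembl gene, not normalized, of which 35.4% (RNA-Best) and 34.9% (RNAlater) of values above 0 are not whole. The option that divided reads and the strand setting are not given in the sources used here. Counts of 6 of the 10 genes were whole in both libraries, and those of Sox9, Prom1, Aldh1a1 and Prrx1 held fractions.

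Symbols, positions and lengths were taken from GENCODE M21 (GRCm38), which matched 98.9% of identifiers. The annotation release behind these counts is not given in the sources used here (the methods name M8 for the cell line samples). The identifiers of Cxadr and Aldh1a1 carry older versions than in M21, so their gene models may differ. Counts were scaled to CPM by library total, and genes were kept where the mean of both libraries reached 1 CPM. Rounded counts gave exact 95% conditional binomial intervals of ratios and exact Poisson intervals of levels. Intervals of pair ratios were Wald intervals on the log scale. Trends on length used LOWESS (span 0.2, statsmodels 0.14.6). Alternative scalings were TMM (edgeR 4.0.16) and size factors (DESeq2 1.42.0). With 1 library per group there was no test and no p-value. The 2-fold calls and the ratio intervals were tested on simulated Poisson counts. These held no length trend, PCR duplicates or variation between libraries, and the other steps were not tested on them.

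The genes, lists and naming rule were chosen with earlier results of these data known. In lists of related genes, the 2 most abundant, the lowest, the highest and those at least 2-fold different were named, and in marker lists the ends and the most abundant. Some genes that this rule names are not reported here. Dip2a and Btg3 were named because they overlap S100b and Cxadr, and Dip2a, which shares no exon base, was chosen after its values were seen.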

Additional observations from a re-analysis of the deposited data

How the results depend on the processing

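The median log2 ratio of the 10 genes came to -0.36 by TMM, to -0.35 by the size factors of DESeq2 and to -0.41 with the total taken without the 2 most abundant genes, and it was -0.35 relative to the median of all genes and -0.40 relative to the length trend. The ratio of the summed genes was -0.59, -0.58 and -0.64 under the same 3 scalings. The number of genes at least 2-fold lower fell from 1 to 0 under each of the 3, where Cdh1 stood at -0.95, -0.94 and -0.997. All 10 ratios were below 0 under each scaling, but the counting intervals of Aldh1a1 and Prom1 then held 0, which left 8 of 10. Other scalings lowered the share of all genes below 0 from 67.0% to between 50.4% and 55.5%. The pseudocount (0.1 or 5 CPM), the minimum level (none or 10 CPM) and, chosen after the data were seen, genes with whole counts or the trend on merged exon length moved the median by less than the counting error of a typical gene, to between -0.46 and -0.56. For the least abundant genes 5 CPM moved the ratio more than any scaling did, S100b from -0.46 to -0.21 and Prom1 from -0.35 to -0.17. No paired analysis was possible because there was a single library per reagent, without numbered replicates. Depth limits S100b and Prom1, whose intervals span 0.67 and 0.61 on the log2 scale.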

Other observations

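Genes of the lists that did not reach a mean of 1 CPM are given here as counts. Of the stem and folliculostellate list, Gfra3 had 1 count in RNA-Best and 9 in RNAlater, Gpr37l1 had 32 and 19, and Sox21 had 0 and 5. A 0 in RNA-Best has a one-sided limit of 3 counts, or 0.0556 CPM, and the exact 2-sided Poisson interval used for levels reaches 0.0684 CPM for Sox21. Of the retinoic acid list, Aldh1a7 had 38 and 29.5 counts, Aldh1a3 11.64 and 20.03, Crabp1 9 and 11, Cyp26a1 5 and 5, and Cyp26c1 0 and 2. Of the S100 genes, S100a3 had 6 and 29 counts, S100a4 45 and 18, and S100g 41 and 24. Sox3 had 42 and 27 counts, Sox10 16 and 25, and Mog, a marker of oligodendrocytes, 4 and 20.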
